A study of Mus musculus with 10 samples.

Results

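Cells grown from the mouse left atrial appendage were compared here by their label for c-kit, the receptor encoded by Kit: 6 libraries labelled c-kit+ against 4 labelled c-kit-. A gene was taken when all 6 values of one set lay above or below all 4 of the other in the authors' normalized expression table. This held for 1907 of the 14253 genes tested (13.4%), of which 903 were higher in c-kit+ (6.34%) and 1004 were lower (7.04%). Before a filter on low values it held for 1954 of the 17821 genes with values, so 47 genes were dropped by that filter. Because the absence of overlap chose these genes, their differences between c-kit+ and c-kit- are given as values with no test. Tests were kept for differences between types inside each set. The choice did not compare these types, but it used the same values and favours genes with little spread inside a set, which limits such tests. Counts from the fit of the c-kit contrast itself are given for whole lists and for all genes, as a description. Every count without overlap in a list stands beside the 6.34% and 7.04% of all tested genes. Counts called by that fit stand beside 16.3% called higher and 9.96% called lower.

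All cells came from C57BL/6 mice of 8 to 12 weeks whose appendages were digested in 3 rounds with trypsin and collagenase D (0.1%), after which the explants were cultured. The c-kit+ set held primary A cells (0.25% trypsin, c-kit+/CD45-), primary B cells (0.05% trypsin, c-kit+/CD45+) and C1 cells (B-type cells at passage 6, c-kit+/CD45-). The c-kit- set held C2 and C3 cells, which were B-type cells at passages 8 and 10 and were both c-kit-/CD45-. Each type had 2 libraries of sorted cells, and the labels do not say whether these came from separate animals or cultures, so the spread between them may be technical. Every c-kit- library was of a later passage than every c-kit+ library, so c-kit status and time in culture cannot be told apart. No group was passage-matched, and CD45, the pan-leukocyte surface protein encoded by Ptprc, was present by label only in B.

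The c-kit protein is a receptor tyrosine kinase whose ligand, stem cell factor, is encoded by Kitl. It marks blood stem and progenitor cells, mast cells and melanocytes, and in the heart it has been used to isolate interstitial cells with progenitor-like properties in culture. Its signal runs through adaptors such as Grb2 to the RAS and PI3K pathways, and it acts on transcription factors that include Mitf and Etv1.

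The deposited values are on a log2 scale and set to 0 at each gene's median over the 10 libraries, so they show differences between libraries and not the level of one gene against another. For 1195 of the tested genes at least 2 libraries sat at the bottom of the scale, taken as 1 normalized read, and for these the level itself could be read. Depth relative to the other libraries, read from the spacing of low values, was 0.436 to 1.5 in c-kit+ libraries and 0.490 to 5.03 in c-kit- libraries, and both C3 libraries were the deepest. A count of 3 reads, the limit used for detection, was worth 2.00 to 6.88 normalized reads in c-kit+ libraries, 6.12 and 3.11 for C2 and no more than the bottom of the scale in C3. These limits cover counting error only. Of the 95 higher genes of known level, 28 had their whole c-kit- set and their lowest c-kit+ library at or under this limit, as had 3 of the 48 lower genes of known level with the sets exchanged. In these genes the separation rested on very few reads.

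Kit itself separated the sets, but narrowly. Its normalized reads were 3.36 and 72.3 for A, 22.9 and 12.7 for B, 35.3 and 66.4 for C1, 1 and 3.11 for C2 and 1 for both C3 libraries. The closest pair was A replicate 1 and C2 replicate 2, which corresponded to 2 reads and 3 reads, so at this depth they cannot be told apart. With all values under the 3-read limit set to that limit, the mean of c-kit+ exceeded that of c-kit- by 3.59 on the log2 scale. Mast cells are another cell type that carries c-kit. Over the 3 of 5 mast cell markers with values, the sum was 208 normalized reads in A replicate 2 and 20.5 in A replicate 1. It was 4.29 to 8.17 for B and C1 and 3 to 4.11 in c-kit- libraries. Nearly all of the sum in A was Hdc, the histidine decarboxylase gene (205 and 18.5 normalized reads). The mast cell protease gene Cpa3 was at the bottom of the scale in both A libraries. It was at 2.29 and 3.62 for B and 3.02 and 3.43 for C1. Mcpt4 was at 1 and 1.92 for A and 1 and 3.55 for B, and Tpsb2 and Fcer1a had no values. The sum therefore does not describe these markers as a group. The part of mast cells in the Kit level of A was not tested. In such bulk libraries fewer cells of a type and less RNA per cell cannot be told apart. Ptprc overlapped between the sets, since C1 replicate 2 and all 4 c-kit- libraries sat at 1 normalized read. It reached 2823 and 2723 for B, as the CD45+ label says, but also 6.72 and 82.1 for A, which is labelled CD45-. Of the heart's own cells, cardiomyocyte markers, over the 4 of 5 with values, summed to 6.36 to 47.5 normalized reads in c-kit+ and 58.5 to 106 in c-kit-, lower bounds since the level of 2 was not known, and the myosin gene Myh6 had no values. Only 1 of these markers, Tnnt2, separated the sets. Actn2 and Ryr2 were at 1 to 3.98 and 1 to 2.07 normalized reads and did not pass the filter on low values. Nppa overlapped, with its highest value (0.94) in B replicate 1, so the sums do not describe the markers as a group.

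The 12 genes with the widest gap and higher values in c-kit+ were Dpep1, Aim2, Gpx3, Mfap5, Cd59a, Eng, Chsy3, Itga4, Sod3, Gdf15, Mfap3l and Mtap. The gap is the distance on the log2 scale from the lowest library of the higher set to the highest library of the lower set. Dpep1, a membrane dipeptidase, had the widest gap of the genes higher in c-kit+, at 5.04. Its log2 values were 1.29 and 1.12 for A, -0.02 and 0.02 for B, 1.91 and 1.51 for C1, -5.20 and -5.06 for C2 and -6.75 and -6.89 for C3. The dipeptidase gene thus fell into 2 separated blocks, with C3 below C2 (difference -1.69 ± 0.17 SE, limma adjusted p = 0.000489). Aim2, a cytosolic DNA sensor, had a gap of 4.63, with values of -0.09 to 0.84 over the 6 c-kit+ libraries and -5.28 to -4.72 over the 4 c-kit- libraries. Gpx3, a secreted glutathione peroxidase, had a gap of 4.51. Its values were 0.08 and -0.08 for A, 1.03 and 0.99 for B, 3.51 and 3.43 for C1, -4.59 and -4.97 for C2 and -7.28 and -7.21 for C3. The peroxidase therefore was highest in C1, the c-kit+ type that is closest in passage to C2 (C1 minus A 3.47 ± 0.16 SE, limma adjusted p = 3.3e-05). Sod3, the extracellular superoxide dismutase, varied little inside the sets, at -0.17 to 0.44 in c-kit+ and -4.87 to -4.21 in c-kit-.

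Eng (endoglin, a TGF-beta co-receptor and mesenchymal and endothelial surface marker) had values of 1.16 and 1.03 for A, 0.10 and -0.10 for B and 1.58 and 1.23 for C1. In C2 and C3 its values were -4.90 to -4.54, a gap of 4.44 to the c-kit+ set. Cd59a, an inhibitor of complement, stood at 81.4 to 208 normalized reads in c-kit+ libraries and at 1 to 3.62 in c-kit- libraries. Itga4, the alpha 4 integrin of leukocytes and mesenchymal cells, was at 66.0 and 97.7 normalized reads in A, 830 and 755 for B, 35.8 and 61.2 for C1, 2.04 and 1.04 for C2 and 1 for both C3 libraries. Its B values were above those of A by 3.30 ± 0.39 SE (limma adjusted p = 0.000881). Gdf15, a stress-induced member of the TGF-beta superfamily, showed the same order of types, with 3.88 and 4.0 for B, -0.15 to 1.76 for A and C1, and -5.18 to -4.01 in c-kit-. The matrix gene Mfap5, the chondroitin synthase Chsy3, Mfap3l and Mtap, which encodes a methionine salvage enzyme, completed the 12 widest gaps, at 3.61 to 4.49.

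Among the 12 genes with the widest gaps in the other direction were Hoxa7, Hoxb7, Hoxd3, Hoxa4, Hoxb8, Hoxa6 and Hoxd9, and also Mira, a noncoding RNA gene listed between Hoxa6 and Hoxa7. Bves, a membrane protein of muscle and epithelium, was at 1 to 1.49 in c-kit+ and 29.8 to 43.1 in c-kit-. Cyp2s1, a cytochrome P450, had values of -1.76 to 0.16 in c-kit+ and 5.20 to 6.63 in c-kit-. Dlk1, an imprinted gene for a non-canonical Notch ligand, had values of -4.49 and -3.55 for A, 0.17 and -0.17 for B, -0.39 and -0.48 for C1, 8.76 and 8.31 for C2 and 4.73 and 4.10 for C3. It was highest in C2, with a difference of C3 from C2 of -4.12 ± 0.36 SE (limma adjusted p = 0.000288).

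**Figure D1:**
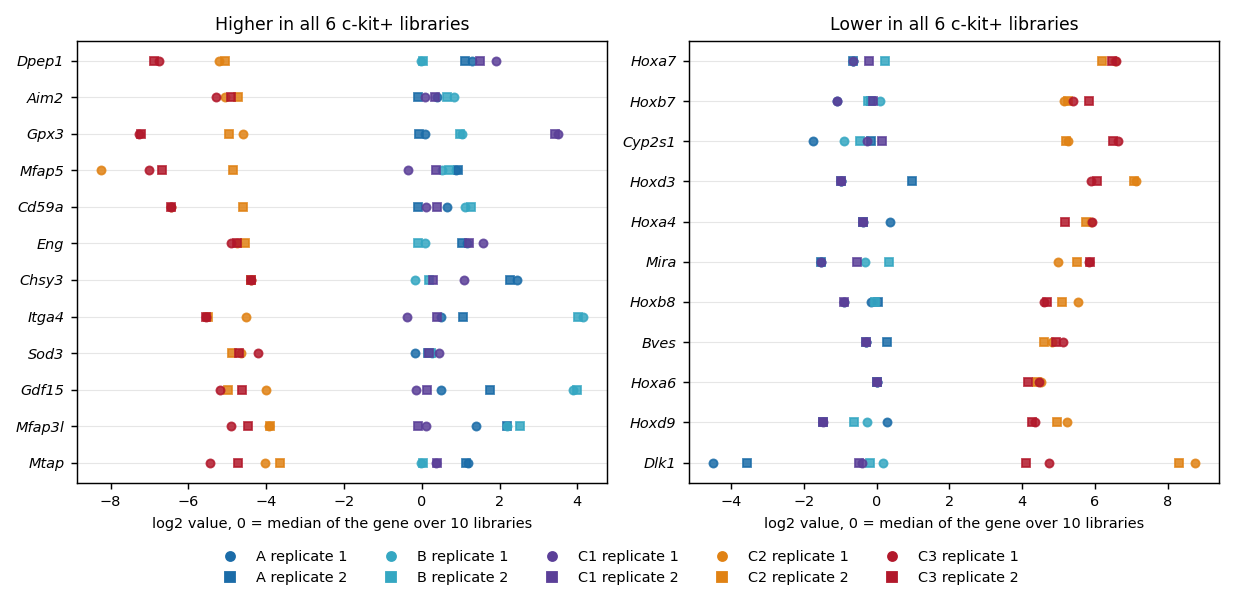
Log2 value of genes among the 12 with the widest gap in each direction, 12 on the left and 11 on the right (x axis, 0 is the gene's median over the 10 libraries), with 1 row per gene and 1 point per library, coloured by cell type. In both panels the c-kit+ points (blue and purple) and the c-kit- points (orange and red) form 2 blocks, 3.61 to 5.04 apart on the left and 3.93 to 5.97 apart on the right.

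HOX genes encode transcription factors that fix position along the body axis and lie in 4 clusters. Of 32 on the list, 28 had values and 20 passed the filter on low values, and 17 were lower in all 6 c-kit+ libraries than in all 4 c-kit- libraries. Of these 17, the 15 of known level passed the filter only through the c-kit- libraries, where they are high, so the count is a description and no share of the list is read from it. Hoxc4 and Hoxc5, with 1 to 5.34 normalized reads and their highest values in C1, did not pass. Hoxa7 was at 1 normalized read in both A libraries, 1 and 1.81 for B and 1 and 1.34 for C1, and at 145 and 114 for C2 and 150 and 139 for C3. Hoxd3 was at 1 to 3.83 in c-kit+ libraries, 272 and 266 for C2 and 117 and 130 for C3. Over the 15 lower HOX genes of known level, no c-kit+ library exceeded 13.5 normalized reads, the value of Hoxa3 and of Hoxd8 for A replicate 1. Each of these genes but Hoxa10 was at 17.6 or more in every c-kit- library.

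The members of the clusters were not all alike. Hoxa10 was at 4.08 and 2.07 for C2, under the limit of 3 reads there, and at 83.4 and 64.0 for C3. Hoxb2 had c-kit+ values up to 0.00 against c-kit- values from 0.55, so its sets lay closer together. Hoxc6 went another way: it was at 23.4 and 17.1 normalized reads in C1 and at 1 to 1.99 in every other library. Hoxb3 and Hoxb4 overlapped between the sets. The lower genes were neighbours in the genome. In RefSeq GRCm38.p6, the patch release of the mm10 build the authors name, the 4 adjacent tested genes from Hoxb8 to Hoxb5 (chr11:96279401-96306121) and the 4 from Hoxd9 to Hoxd4 (chr2:74697763-74748271) were all lower in c-kit+. Neighbouring HOX genes overlap and the library kit does not mark strand, so reads of close neighbours may be shared.

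**Figure D2:**
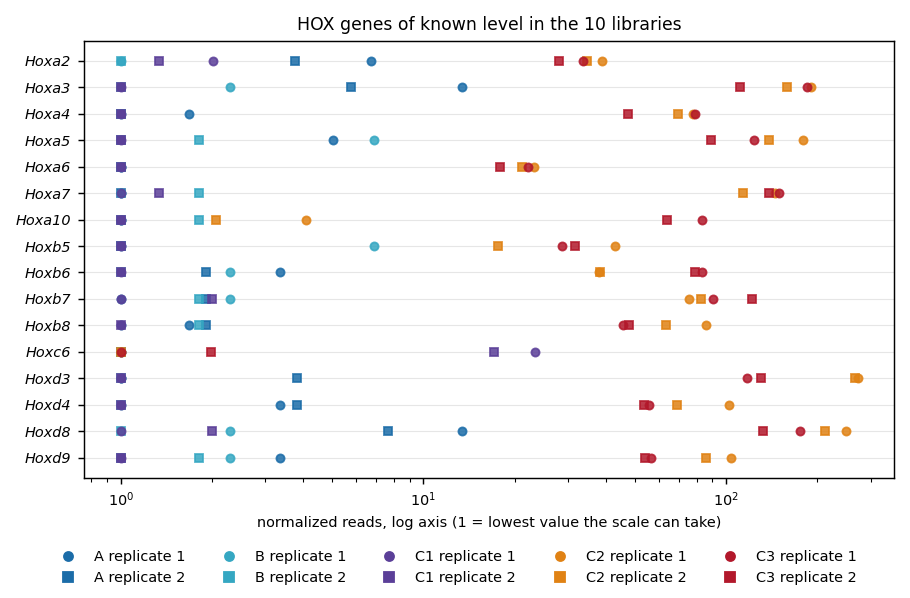
Normalized reads (x axis, log scale, 1 is the lowest value the scale can take) of the 16 tested HOX genes of known level in each of the 10 libraries. In 14 of the rows the orange and red c-kit- points lie at 17.6 or more and the c-kit+ points at 13.5 or less; Hoxa10 has its C2 points at 2.07 and 4.08, and in Hoxc6 the C1 points alone are at 17.1 and 23.4.

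Genes of cell division were lower in c-kit+. On a list of 24 mitosis genes, 19 did not overlap and were lower in c-kit+, none was higher, and the median difference was -2.09. The limma fit of the c-kit contrast called all 24 lower, beside 9.96% of all tested genes. On a list of 24 DNA replication genes, 15 were lower without overlap, none was higher, the median difference was -1.42, and limma called 21 lower. Kif11, the kinesin that separates spindle poles, had the widest gap of the mitosis list (1.29), with values of 0.00 for both A libraries, -0.45 and -0.35 for B, -1.15 and -1.66 for C1, 1.29 and 1.46 for C2 and 2.73 and 2.65 for C3. Cenpf, a kinetochore protein, had values of 0.18 and -0.18 for A, -0.76 and -1.08 for B, -2.58 and -2.95 for C1, 0.95 and 1.00 for C2 and 1.97 and 2.06 for C3. Mcm2, a subunit of the replicative helicase, had values of -0.57 to 0.01 in c-kit+, 1.33 and 1.04 for C2 and 2.69 and 2.17 for C3. Prim1, the catalytic subunit of DNA primase, had -0.99 to 0.21 in c-kit+ and 0.63 to 2.47 in c-kit-.

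The gap was set by A and C2, and the extremes by C1 and C3. The median value of the 24 mitosis genes was 0.13 and -0.14 for A, -0.46 and -0.54 for B, -1.88 and -2.53 for C1, 0.36 and 0.45 for C2 and 1.96 and 2.02 for C3. Inside the c-kit+ set, 23 of the 24 mitosis genes were called lower in C1 than in A by limma, beside 16.6% of all tested genes. Inside the c-kit- set, 21 were called higher in C3 than in C2 (median difference 1.49), beside 11.6% of all tested genes. Of the replication genes 10 were called lower in C1 than in A and 18 higher in C3 than in C2. Leaving out C3 left 19 mitosis and 15 replication genes without overlap and lower. Leaving out libraries cannot lower these counts, so they are no test. Without C3, limma called 8 replication genes lower in place of 21.

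Printed next are the 150 bases before the start site of mitosis genes that were lower in c-kit+. The CHR (TTTGAA) and the CCAAT box (CCAAT) are promoter elements known from genes of late cell cycle. These genes were picked because their 150 bases hold both, so they do not stand for the list. Of the 17 lower mitosis genes with a sequence, 6 held both in the 250 bases before the start. The sequences are from RefSeq GRCm38.p6, 5′ to 3′ on the gene's strand, at chr19:37376232-37376381 (plus strand), chr3:27153879-27154028 (minus) and chr10:69352913-69353062 (minus). Ect2 is a guanine nucleotide exchange factor of cytokinesis and Cdk1 the mitotic kinase. Capitals mark CHR and CCAAT letters on either strand.
Kif11: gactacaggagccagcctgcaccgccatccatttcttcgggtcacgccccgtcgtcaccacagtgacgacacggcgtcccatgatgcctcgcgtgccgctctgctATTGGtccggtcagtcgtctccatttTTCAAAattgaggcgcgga
Ect2: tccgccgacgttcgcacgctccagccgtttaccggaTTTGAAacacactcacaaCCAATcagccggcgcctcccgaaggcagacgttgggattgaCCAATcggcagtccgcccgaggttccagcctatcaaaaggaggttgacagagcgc
Cdk1: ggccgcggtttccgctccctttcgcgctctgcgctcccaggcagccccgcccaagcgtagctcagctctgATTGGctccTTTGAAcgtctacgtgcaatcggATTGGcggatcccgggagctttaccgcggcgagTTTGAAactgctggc

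Searched on both strands of the 250 bases before the start, CCAAT was found in 19 of 20 mitosis genes with a sequence (95.0%), beside 36.7% of the 11045 tested genes with one. TTTGAA was found in 7 of the 20 (35%), beside 10.8%, and both together in the same 7, beside 4.35%. For the replication genes the letters of E2F sites (TTTCCCGC, TTTCGCGC, TTTGCCGC or TTTGGCGC) were searched, since E2F factors act on genes of S phase. They stood upstream of 6 of 19 replication genes (31.6%), beside 3.43% of all and 7.24% of the 801 genes that were lower in c-kit+. Mcm6 (chr1:128359706-128359855, minus strand) and Mcm5 (chr8:75109359-75109508, plus strand), both helicase subunits, were picked because they hold these letters, shown in capitals. In Mcm6 the first run of capitals holds 2 overlapping matches on opposite strands.
Mcm6: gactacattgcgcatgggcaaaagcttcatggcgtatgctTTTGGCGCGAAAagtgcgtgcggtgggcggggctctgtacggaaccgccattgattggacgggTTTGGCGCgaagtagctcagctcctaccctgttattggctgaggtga
Mcm5: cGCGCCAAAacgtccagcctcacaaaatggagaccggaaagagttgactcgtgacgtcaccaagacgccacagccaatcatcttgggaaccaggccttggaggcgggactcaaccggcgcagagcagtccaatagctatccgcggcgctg
A match of letters is a description of these windows and not evidence of a bound factor. The CpG count of the same 250 bases had a median of 18 in the lower genes, 14 in the higher genes and 15 over all tested genes.

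Inhibitors of cyclin-dependent kinases hold the cell cycle in check. Of 22 inhibitors and p53 targets, 2 were higher in c-kit+ without overlap and none was lower, and these 2 are neighbours. Without C3 replicate 2 the count of higher genes was 4. Cdkn2b (p15) was at 627 and 337 normalized reads in A, 142 and 143 for B, 102 and 170 for C1, 6.12 and 13.5 for C2 and 1 for both C3 libraries. Cdkn2a, which encodes p16 and p19ARF, had values of -0.19 to 0.66 in c-kit+, -2.90 and -3.56 for C2 and -8.45 and -7.81 for C3, a difference of C3 from C2 of -4.90 ± 0.30 SE (limma adjusted p = 8.42e-05). Mtap, next to them, had values of -0.03 to 1.20 in c-kit+, -4.03 and -3.64 for C2 and -5.43 and -4.72 for C3. The 3 were adjacent among tested genes (chr4:89137370-89311032). The p53 targets Cdkn1a and Mdm2 overlapped between the sets, with mean differences of 0.51 and -0.60 that limma did not call.

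**Figure D3:**
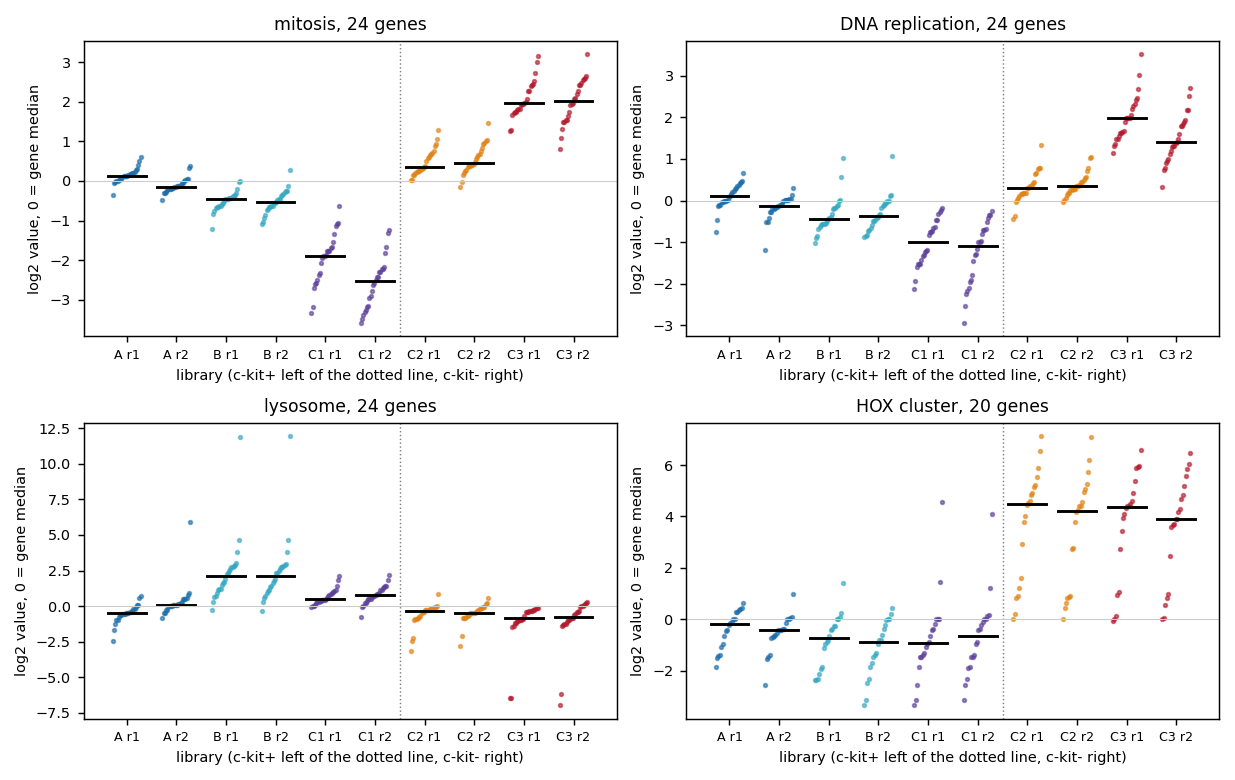
Log2 value (y axis, 0 is each gene's median over the 10 libraries) of every tested gene of 4 lists in each library (x axis; r1 and r2 are the replicates), with the list's median as a black bar. Mitosis and replication medians are lowest in C1 and highest in C3, lysosome medians are highest in B, and medians of the 20 HOX genes that passed the filter are at -0.93 to -0.19 in c-kit+ and 3.91 to 4.49 in c-kit- libraries.

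Of the c-kit pathway, 27 of 29 listed genes were tested. Beside Kit, the higher ones were Etv1, Mitf and Grb2, the lower one was Kitl, and 22 overlapped (median difference of the list 0.10). Etv1, an ETS factor that acts with c-kit in interstitial cells of Cajal, was at 193 and 132 normalized reads in A, 265 and 217 for B, 99.2 and 43.4 for C1, 8.16 and 9.32 for C2 and 1 for both C3 libraries. It thus had no c-kit+ library below 43.4 and no c-kit- library above 9.32, and its difference of C3 from C2 was -3.12 ± 0.38 SE (limma adjusted p = 0.000988). That size is a lower bound, and its SE and p can be too small, since both C3 libraries sat at the bottom of the scale. Mitf, the basic helix-loop-helix factor of melanocytes, mast cells and osteoclasts, had values of -0.44 and 0.44 for A, 2.01 and 2.04 for B, 1.11 and 0.82 for C1, -1.10 and -1.52 for C2 and -4.22 and -3.98 for C3. The adaptor Grb2 was set apart by B: its values were 2.17 and 2.20 for B, 0.00 to 0.13 for A and C1, and -0.36 to -0.19 in c-kit-. Kitl, the ligand, ran opposite to its receptor, with -0.95 to 0.01 in c-kit+, 0.25 and 0.54 for C2 and 1.20 and 1.37 for C3. The receptor's adaptors and effectors Shc1, Pik3ca, Plcg1, Ptpn11 and Sos1 overlapped, with mean differences of -0.20 to 0.03. The blood factor Gata2 also overlapped and was lower in c-kit+ by limma (-1.09), while the hematopoietic kinase Lyn (1.83), phosphatase Ptpn6 (3.06) and factor Tal1 (2.38) were called higher, each with its highest values in the CD45+ B libraries.

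Among 16 surface markers of progenitor and mesenchymal cells, Eng and Pdgfrb were higher in c-kit+ and Abcg2 was lower. Pdgfrb, the PDGF-B receptor, had values of -0.01 to 1.69 in c-kit+, -0.11 and -0.38 for C2 and -2.39 and -3.13 for C3, so its C2 values lay close to those of B. Abcg2, the efflux pump that defines the side population, had -0.78 to 0.00 in c-kit+ and 0.93 to 1.75 in c-kit-. Ly6a (Sca-1), Thy1 and Pdgfra, although called higher by limma, overlapped between the sets. Of 35 fibroblast and matrix genes, 3 were higher without overlap, none was lower, and limma called 16 higher, beside 16.3% of all tested genes (median difference of the list 0.71). The 3 were Col14a1, Fbln1 and Fbn1, which encode a fibril-associated collagen, fibulin-1 and fibrillin-1. Col14a1 had values of 5.22 and 3.70 for A, 2.50 and 2.19 for B, -0.15 and 0.15 for C1, -1.48 and -1.58 for C2 and -6.96 and -7.48 for C3, a descending order of the types. Inside the c-kit- set, 30 of the 35 genes were lower in C3 than in C2 by limma (median -3.11), beside 16.2% of all tested genes. Without C3, 6 of the 35 were called higher in c-kit+ and 9 lower.

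Among matrix proteases and their inhibitors, 5 of 24 were higher (Mmp3, Mmp10, Adamts2, Adam19 and the inhibitor Timp2) and 1 was lower (the collagenase Mmp13). Mmp3, stromelysin-1, had values of -0.02 to 1.59 in c-kit+, -1.87 and -1.63 for C2 and -6.49 and -6.78 for C3. Of 13 transcription factors of epithelial-mesenchymal transition, 4 were higher and none was lower. Twist2 had values of 2.68 and 3.16 for A, -0.17 and 0.17 for B, 2.30 and 2.25 for C1 and -2.66 to -1.59 in c-kit-. Foxc2, Snai1 and Zeb2 were the others, with gaps of 1.80, 0.21 and 0.16. The TGF-beta list had 5 of 33 higher and none lower: the ligands Tgfb1 and Tgfb2, the receptor Tgfbr2, the procollagen protease Bmp1 and the target gene Id2. Tgfbr2 varied little inside the sets, at -0.11 to 0.67 in c-kit+ and -1.21 to -1.09 in c-kit-. The antagonists Nog and Chrdl1 and the follistatin gene Fst overlapped and were called lower in c-kit+ by limma, at -1.60, -1.48 and -1.51.

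Of 24 lysosomal genes, 7 were higher without overlap (Ctsd, Ctsh, Ctsk, Ctsl, Ctsz, Npc2 and Lipa) and none was lower, beside 6.34% and 7.04% of all tested genes. The limma fit called 15 higher (median difference 1.46), beside 16.3% of all tested genes. Ctsh, a cysteine cathepsin, had values of 0.73 and 0.56 for A, 2.50 and 2.59 for B, 0.01 and -0.01 for C1, -2.23 and -2.79 for C2 and -6.45 and -6.16 for C3. Ctsk, the collagen-degrading cathepsin K, had -0.51 and 0.51 for A, 3.02 and 2.99 for B, 2.13 and 2.22 for C1, -2.46 and -2.10 for C2 and -6.43 and -6.96 for C3. Ctsd, the aspartyl cathepsin D, had 0.07 and 0.81 for A, 4.65 for both B libraries, -0.07 and 0.24 for C1 and -1.42 to -0.74 in c-kit-. Without the B libraries limma called 7. The count without overlap was then 7, but leaving out libraries cannot lower that count, so it is no test. Without A replicate 1 the count without overlap was 14, and without both A libraries it was 22. The E-box letters CACGTG, bound by factors of the MITF and TFEB family, stood in the 250 bases before 6 of 18 lysosomal genes (33.3%), beside 8.18% of all tested genes. The 150 bases before Ctsd (chr7:142387828-142387977, minus strand) were picked because they hold these letters and are shown with the E-box in capitals.
Ctsd: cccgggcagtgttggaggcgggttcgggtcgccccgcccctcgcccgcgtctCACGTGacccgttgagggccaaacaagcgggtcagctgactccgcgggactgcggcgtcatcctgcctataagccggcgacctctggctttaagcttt

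Markers of macrophages moved with the B libraries. Of 29 macrophage and monocyte genes limma called all 29 higher in c-kit+, but only Lyz2, Lyz1 and Emr1 (F4/80) did so without overlap, and without B limma called 3. The count without overlap was 7 without A replicate 1, 9 without C1 replicate 2 and 5 without C2 replicate 2. Lyz2, macrophage lysozyme, had values of -0.49 and 3.07 for A, 8.89 and 8.95 for B, 0.49 and 1.36 for C1 and -2.96 to -1.92 in c-kit-. Lyz1 and Lyz2 are near-identical copies, so reads may be shared between them. The sum of 8 macrophage markers, a lower bound where the level was not known, was 33.4 and 786 normalized reads in A, 44880 and 43800 for B, 26.7 and 33.8 for C1 and 12.2 to 17.4 in c-kit- libraries. The part of these cells in the lysosomal values of B was not tested. Chemokine genes were higher in c-kit+ for 6 of 25 without overlap (Cxcl1, Cxcl2, Cxcl14, Cxcl16, Ccl7 and Ccl8) and lower for none. Cxcl1, a neutrophil attractant, had -0.02 to 1.47 in c-kit+ and -2.98 to -2.31 in c-kit-. Cxcl14 was at 2470.4 and 498 normalized reads in A, 339 and 284 for B, 7.05 and 8.68 for C1, 2.04 and 1.04 for C2 and 1 for both C3 libraries, so its C1 values were nearer to those of C2 than of B. Under quantile normalization the count was 5.

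Epicardial and mesothelial genes had members in both directions. Of 16, Tcf21 was higher in c-kit+, and Wt1, Gpm6a, Upk1b, Lrrn4, Krt18 and Bnc1 were lower (median difference -2.74). Tcf21, a factor of epicardium-derived fibroblasts, had values of -0.07 to 1.16 in c-kit+, -3.25 and -3.31 for C2 and -5.76 and -6.22 for C3. Lrrn4, a mesothelial membrane protein, had -4.16 and -3.73 for A, 0.02 and -0.03 for B, -0.02 and -0.23 for C1, 2.34 and 2.13 for C2 and 1.30 and 1.19 for C3. Its A libraries were far below B (B minus A 3.94 ± 0.18 SE, limma adjusted p = 2.34e-05), and the mesothelial glycoprotein Gpm6a showed the same step of 4.19 ± 0.21 SE (3.63e-05). Krt18, a keratin of simple epithelium, had -3.93 and -2.75 for A, 0.20 and -0.20 for B, -1.77 and -2.68 for C1, 0.67 and 1.03 for C2 and 6.41 and 6.43 for C3, so its C2 values were closer to B than to C3. Of 9 simple epithelial genes 3 were lower without overlap, namely Krt18, the adhesion gene Cdh1 and the junction gene Tjp1. Among 16 cardiac transcription factors 3 were higher (Tcf21, Foxc2 and Tbx20) and 1 was lower. Of 9 sarcomere genes, the troponin gene Tnnt2 was lower (-4.71 to 0.70 in c-kit+, 0.98 to 1.94 in c-kit-), and Mybpc3 was higher with a gap of only 0.01, which closed under quantile normalization.

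Of 24 chromatin regulators, 1 was higher and 3 were lower, beside 6.34% and 7.04% of all tested genes. The 2 enzymes of Polycomb repressive complex 2 ran in opposite directions. Ezh2, the methyltransferase of dividing cells, had values of -1.08 to 0.16 in c-kit+, 1.40 and 1.57 for C2 and 2.77 and 2.58 for C3. Its paralogue Ezh1 ran the other way, at 0.00 to 0.92 in c-kit+ and -1.21 to -0.66 in c-kit-. Suz12, a core subunit of the same complex, and Uhrf1, which directs maintenance of DNA methylation, were lower in c-kit+, and the other 20 of 24 genes overlapped. Without C2 replicate 1 the count of higher genes was 3 in place of 1. Of 23 imprinted genes, Dlk1 and Plagl1 were lower and Ndn and Snrpn higher. Plagl1, a zinc finger regulator of growth, had values of -2.26 to 0.36 in c-kit+, 7.35 and 7.52 for C2 and 1.26 and 0.69 for C3, and like Dlk1 it was far higher in C2 than in C3 (difference -6.46 ± 0.40 SE, limma adjusted p = 8.42e-05). Snrpn, whose locus also holds overlapping transcripts, was at 9.41 to 26.5 normalized reads in c-kit+ and at 1 to 5.94 in c-kit-.

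Of 31 Wnt genes 4 were higher and 1 lower. Over all tested genes 6.34% were higher and 7.04% lower, the shares beside which this and the next lists stand. The secreted Wnt antagonist Frzb was at 7837 and 3785 normalized reads in A, 784 and 796 for B, 124 and 137 for C1, 59.2 and 92.0 for C2 and 1 for both C3 libraries, so the step between C1 and C2 was smaller than the steps between the other types in this order. Wisp2 and Nkd2 were higher with gaps of 2.92 and 0.56, and the ligand Wnt4 was lower with a gap of 0.36. Of 35 ligands and receptors of the receptor tyrosine kinases, Vegfc, Pdgfd and Pdgfrb were higher and Fgfr2 and Met, the hepatocyte growth factor receptor (gap 0.08), were lower. Fgfr2 had values of -0.53 to 0.05 in c-kit+, 1.94 and 1.83 for C2 and 0.92 and 0.78 for C3. Of 35 axon guidance genes, Robo1 and Ntn1 were higher and Sema3a and Efna5 lower, which is not above the shares over all tested genes. Sema3a, a secreted repellent, had -3.52 to 0.07 in c-kit+ and 1.90 to 2.28 in c-kit-. The adipocyte and the smooth muscle lists, of 11 and 15 tested genes, had no member in either direction. Leaving out 1 library moved the count of lower guidance genes from 2 to 4 (A replicate 2). Of 23 genes of glycolysis and the hypoxia response 3 were lower and none was higher, and all of these, Hk2, Gapdh and Tpi1, lie on chromosome 6.

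The 4 Y-linked genes tested were all higher in c-kit+. Ddx3y, an RNA helicase, was at 618 and 353 normalized reads in A, 555 and 414 for B, 1344 and 1247 for C1, 57.2 and 86.2 for C2 and 1 for both C3 libraries. The same order was seen for Eif2s3y, Kdm5d and Uty, with C2 at 20.4 to 55.1 and C3 at the bottom of the scale in each. The differences of C3 from C2 were -6.13 to -4.57 on the log2 scale (limma adjusted p = 2.05e-06 to 7.36e-05). With both C3 libraries at the bottom of the scale, these are lower bounds of the size. The C3 replicates cannot differ there, which can make the p too small. They have X-linked copies, and no source used here says how reads shared with those were counted.

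The genes lower in c-kit+ were unevenly spread over the chromosomes. On chromosome 19, 117 of 501 tested genes were lower (23.4%), on chromosome 6, 137 of 713 (19.2%), and on chromosome 10, 84 of 680 (12.4%). Outside chromosomes 6 and 19 the share was 5.76%. These 2 chromosomes held 8.61% of tested genes with a position and 25.5% of the lower ones, and on them 2.20% and 2.66% of genes were higher. The median difference over all tested genes of the chromosome, members or not, was -0.46 on 19, -0.38 on 6 and -0.23 on 10, beside 0.03 over the genome. For medians by library, each gene was first centred on its mean over the libraries, and then each library on its own median. By library, the median value on chromosome 19 was -0.25 to -0.10 in the 6 c-kit+ libraries and 0.24 to 0.32 in the 4 c-kit- libraries. On chromosome 6 it was -0.31 to -0.23 for A and B, -0.06 and -0.03 for C1 and 0.22 to 0.27 in c-kit-. On chromosome 10 it was -0.19 to -0.16 for A and B, and 0.09 in both C1 libraries lay between 0.07 for both C3 and 0.21 to 0.22 in the C2 libraries. Medians that set single types apart were seen elsewhere: C1 had -0.64 and -0.60 on chromosome 3 and -0.62 and -0.64 on chromosome 7, where no other library was below -0.03, and on chromosome 4 both C1 (-0.50 and -0.47) and C2 (-0.29 and -0.27) were low. The shares of genes on chromosome 3 that were higher and lower were 2.60% and 8.38%. The reason for these values was not tested.

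**Figure D4:**
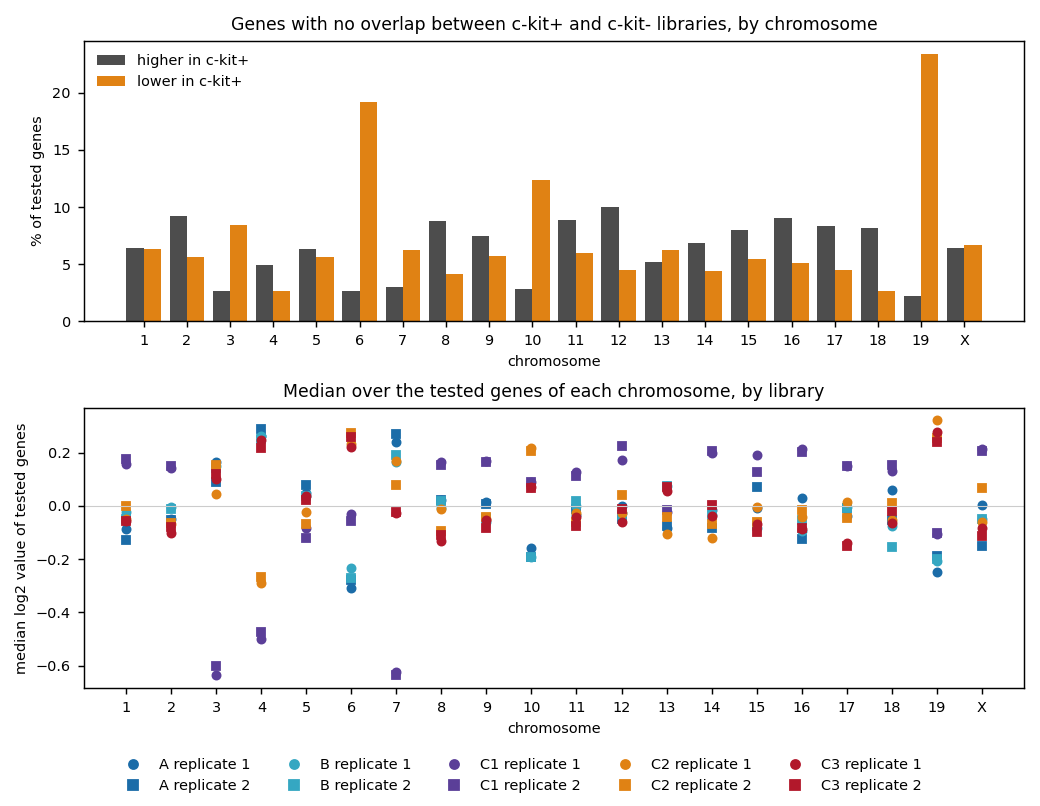
Top: share of tested genes on each chromosome that were higher (grey) or lower (orange) in all c-kit+ libraries, with the highest orange bars on chromosomes 19 (23.4%), 6 (19.2%) and 10 (12.4%). Bottom: median log2 value of the tested genes of each chromosome by library, after centring each gene on its mean and each library on its median. The c-kit- points lie above all c-kit+ points on chromosomes 6 and 19, and C1 points are lowest on 3, 4 and 7.

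Runs of adjacent members were found besides the HOX clusters. Of 4 or more tested genes in a row there were 6 runs of higher and 5 of lower genes. Of 51 histone genes tested, 6 were higher without overlap and none was lower (median difference 0.93), although division genes ran the other way. Histone genes are also near-identical copies and their values are uncertain.

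Inside the sets the 1907 genes were not uniform. Of the 903 higher genes, limma called 216 lower in C3 than in C2 (23.9%) and 14 higher, where 16.2% and 11.6% of all tested genes were called. Of the 1004 lower genes, 221 were higher in C3 than in C2 (22.0%) and 27 were lower. The median difference of C3 from C2 was -0.34 in the first group, 0.40 in the second and 0 over all genes. Between B and A, 182 of the higher genes were higher in B and 97 lower, and 27 of the lower genes were higher in B and 80 lower, where 14.5% and 12.4% of all genes were called. Between C1 and B, where 33.7% of all genes were called (12.6% higher and 21.1% lower in C1), 62 of the higher genes were higher in C1 and 215 lower, and 107 of the lower genes were higher and 116 lower. Between C1 and A, where 10.1% of all genes were higher in C1 and 16.6% lower, 60 of the higher genes were higher in C1 and 115 lower, and 61 of the lower genes were higher and 158 lower. From C1 to C2, which lie on either side of the label and differ by 2 passages, 395 of the higher and 405 of the lower genes were past the limma threshold in the direction that the choice had fixed. Of all tested genes, 8.18% were called lower in C2 than in C1 and 12.2% higher. Over all tested genes the types nearest to each other were C1 and C2, with a root mean square difference of 1.35, and the farthest were B and C3, with 2.43. Replicates differed by 0.43 to 0.52, except those of A at 1.06.

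Most of the 1907 gaps were small. The median gap was 0.29 for higher and 0.24 for lower genes, and 246 genes (1.73%) had a gap of at least 1, of which 165 were higher (1.16%) and 81 lower (0.568%). Just inside the rule were Prmt3, Pus7 and Ncoa5, with gaps up to 0.00088, and just outside were Csda, Slc25a22 and Ap3b1, which overlapped by up to 0.00087. The limma fit of the c-kit contrast on all 14253 genes, with the spread taken between replicates, called 2325 higher and 1420 lower (26.3% together). Under quantile normalization it called 1827 and 1840. With the 5 cell types as the replicates, 3 against 2, it called 0 genes: the lowest adjusted p was 0.0759, and 990 genes had an unadjusted p under 0.05. The larger fit thus takes its error from replicate libraries and not from the differences among cell types of 1 set.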

How the data were processed

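RNA-seq of 10 libraries (5 cell types, 2 each) was used. The authors deposited 1 table of log2 values over 36172 genes. The submitters' processing notes name TopHat, DESeq and mm10 without version or role, with read counter and annotation not given in the sources used here. From their spacing, the deposited values were taken as log2 of reads divided by a size factor, raised to at least 1, minus the gene's median over the libraries. This reading is not certain: by library, 32.9% to 70.5% of low values were whole reads within 0.01. The 17 genes with a cell turned into a date were left out, and 18334 were 0 throughout. Genes of known level needed 10 normalized reads in at least 2 libraries, which removed 3568.

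Gaps and limma fits (limma 3.58.1, R 4.3.3) with 1 mean per type were computed on the 14253 genes left. The c-kit contrast is the mean of A, B and C1 minus that of C2 and C3. A call needed a Benjamini-Hochberg adjusted p under 0.05 over all genes and a log2 difference of at least 1. Positions and promoter sequences are from RefSeq GRCm38.p6, with 14103 genes placed and 11045 with a sequence; the first start was used for 2226 genes with several. Named were Kit, Ptprc and Kitl, the 12 widest gaps in each direction, and up to 4 members with the widest gaps from each list; other genes named were chosen after their values were seen. The genes and lists were chosen with earlier results of these data known. The fit was tested on simulated data. Replicate numbers did not pair the libraries (correlations of deviations -0.06 to 0.09 over 10 pairs). Python 3 with pandas and matplotlib was used for positions and plots. Alternatives were other filters, a pseudocount, 2 scalings, leaving out libraries and types, another unit of replication and a replicate block. A few genes are not reported here.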

Additional observations from a re-analysis of the deposited data

How the results depend on the processing

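The 1907 non-overlapping genes (903 higher, 1004 lower) kept their direction under every alternative that kept them. Leaving libraries out can only add genes, by construction: the total was 2000 to 2511 without 1 library (940 to 1181 higher, 1046 to 1330 lower). Without A it was 3431 (1745 and 1686), without C1 3697 (1916 and 1781), without C2 6047 (2850 and 3197), without C3 3654 (1737 and 1917), and for C1 against C2 and C3 alone 6839 (3424 and 3415). A gap of at least 1 left 246. Of the 1907, 1850 (97%) remained under quantile normalization, 1896 under median centring and 1838 with a filter of 50 reads. The limma calls of the c-kit contrast were 2168 to 2449 higher and 1299 to 1520 lower without 1 library, 466 and 451 with the spread taken inside each set of libraries, and 0 and 0 with the type as replicate. The calls inside sets, without 1 library, were 323 to 444 (B minus A), 325 to 453 (C1 minus A), 429 to 527 (C1 minus B) and 390 to 513 (C3 minus C2), and those of C2 minus C1 2174 to 3298. With the replicate number as a block the c-kit contrast gave 2317 and 1422, the sets 378, 388, 495 and 480, and C2 minus C1 2865. The medians on chromosomes 6 and 19 stayed negative, at -0.50 to -0.26 and -0.58 to -0.36. Of 111 named genes, Mybpc3 alone lost its gap, under quantile normalization. Leaving out libraries could not close a gap, and the filter of 50 reads kept 107 of the 111. Shallow c-kit+ libraries limit what can be said of genes under about 7 normalized reads.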

Other observations

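Interferon-stimulated genes formed a group that separated C3 and not the c-kit sets. Of 24, none was without overlap between c-kit+ and c-kit- libraries, while limma called 18 lower in c-kit+, beside 9.96% of all tested genes. It called 23 higher in C3 than in C2 (median 3.89), beside 11.6% of all tested genes. The list's median value was 4.11 and 3.49 in C3 and -0.51 to 0.29 in the other 8 libraries. Without C3, 0 of the 24 were called lower in c-kit+ and 2 were called higher.

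Genes of glycolysis and the hypoxia response were lowest in C1. The median value of the 23 genes was -1.85 and -1.66 in C1 and -0.24 to 0.16 in the other 8 libraries. By limma, 17 were called lower in C1 than in A, beside 16.6% of all tested genes.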
